A study of Mus musculus with 13 samples.

Results

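The genes described here are those of the cell cycle and of DNA replication on a mouse two-colour array. They were taken by symbol: A, B, D and E type cyclins, cyclin-dependent kinases, Mcm, Orc and Rfc genes, subunits of DNA polymerases alpha, delta and epsilon, primase, ribonucleotide reductase, Bub, Aurk, Plk and Gins genes, Cdc6, Cdc7, Cdc20, Cdc25 and Cdc45, and Pcna, Top2a and Mki67. The rule found 83 probes of 11723 that name a single gene, which is 69 genes of 9669. It also took in Cdc73, a subunit of the transcription elongation complex PAF1, Mcm3ap, an mRNA export factor, and Ccnb2-ps, a pseudogene that shares sequence with Ccnb2, so that the reads of both on the array are uncertain. These 3 stayed in all counts.

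Each of the 13 arrays carried mouse total RNA of a source named NT1 in one dye and of a source named TBV in the other. The series title names Sall4 -/- beside NT1 vs TBV, and which source carries the deletion, and how the cells were grown, are not given in the sources used here. NT1p14 was set against TBVp13 on 5 arrays, NT1p12 against TBVp12 on 4, NT1 1 against TBV2 on 2 and NT1p12 against TBVp13 on 2. In these names p and a number are taken to mean the passage. The first 3 pairs are called here by the source that they alone hold: the NT1p14 pair, the TBVp12 pair and the TBV2 pair. Since NT1p12 and TBVp13 each also stand in another pair, NT1p12 with TBVp13 entered no test over pairs. The labels name no cell type, though a line of mouse ES cells is known as TBV2. Nothing says that sources of 1 name came from separate cultures, so p-values over source pairs may measure technical spread only, and those over repeat arrays compare RNA preparations, not passages or genotypes.

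All values are log2 ratios of NT1 over TBV as far as the deposited table allows. The log base, the numerator and the direction of all signs together are not settled by the sources used here; Cy5 over Cy3 was read. The NT1p14 and TBVp12 pairs correlated below 0 over all genes (r = -0.48) and over the cell cycle genes (r = -0.58 over 59 genes, which share arrays and sources), while the TBV2 pair stood near 0 against both (0.12 over 60 genes and 0.0042 over 63). The direction of these pairs relative to each other is therefore unsettled as well, and results are also given with the NT1p14 pair turned. Of the 930 values of these genes 270 (29%) had lost their decimals, against 19.3% of all values. An array value of a gene printed without decimals is such a whole number, and a mean over several probes may include one. Of the cell type markers, 6 of 8 pluripotency genes lay below 0 in the NT1p14 pair, 8 of 8 in the TBVp12 pair and 7 of 8 in the TBV2 pair; ratios cannot show whether a marker is absent.

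Proliferating cells copy their DNA once per cycle. In G1 the origin recognition complex and Cdc6 load the Mcm2 to Mcm7 ring, the replicative helicase, onto origins; Cdc7 with Cdc45 and the GINS complex then turn it on, and the polymerases follow with the clamp Pcna, which the Rfc complex loads. Cyclins with their kinases order these steps and mitosis, where Aurora and Polo-like kinases and the Bub checkpoint act. Many of these genes are transcribed periodically through E2F sites, and through CHR and CCAAT elements in the case of late genes; in mouse embryonic stem cells, which have a short G1, much of this program runs at a high level throughout the cycle.

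Promoters are shown for 4 genes with the most kinds of these elements among the 3 genes of each role with the most decimal values, ties taken by symbol, as RefSeq gives them on GRCm38.p6, from 250 bases before to 50 bases after the gene's start. Capitals mark CCAAT (or ATTGG), the CHR TTTGAA (or TTCAAA) and the E2F forms TTTCCCGC, TTTGGCGC, TTTCGCGC and TTTGCCGC (or GCGGGAAA, GCGCCAAA, GCGCGAAA and GCGGCAAA), searched on both strands. Gins3 and Cdc25a differed between the larger pairs, and Cdc45 and Cdk16 did not pass that test. Mcm2, Mki67, Rfc3 and Top2a also held 2 kinds and fell to the tie rule, and Cdk1 held 3 but is not among the genes of that rule. Gins3 lies at chr8:95633309-95633608 (+), Cdc25a at chr9:109875329-109875628 (+), Cdc45 at chr16:18811923-18812222 (-) and Cdk16 at chrX:20687704-20688003 (+).
Gins3: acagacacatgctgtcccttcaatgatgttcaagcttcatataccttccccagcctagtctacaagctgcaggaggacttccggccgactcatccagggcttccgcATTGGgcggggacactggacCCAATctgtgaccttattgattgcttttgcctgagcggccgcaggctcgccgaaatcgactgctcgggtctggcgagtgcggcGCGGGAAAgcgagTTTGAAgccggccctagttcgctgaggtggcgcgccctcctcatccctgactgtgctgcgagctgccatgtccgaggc
Cdc25a: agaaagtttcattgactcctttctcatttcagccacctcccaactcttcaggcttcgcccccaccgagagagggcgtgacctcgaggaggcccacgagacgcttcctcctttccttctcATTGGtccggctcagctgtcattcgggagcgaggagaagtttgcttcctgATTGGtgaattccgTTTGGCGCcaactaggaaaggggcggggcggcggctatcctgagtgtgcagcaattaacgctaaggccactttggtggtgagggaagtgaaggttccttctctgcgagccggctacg
Cdc45: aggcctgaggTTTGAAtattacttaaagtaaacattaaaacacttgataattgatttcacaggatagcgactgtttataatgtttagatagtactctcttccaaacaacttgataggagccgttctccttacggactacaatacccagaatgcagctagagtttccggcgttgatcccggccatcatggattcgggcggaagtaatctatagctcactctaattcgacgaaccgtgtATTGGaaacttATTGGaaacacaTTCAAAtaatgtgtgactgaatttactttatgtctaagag
Cdk16: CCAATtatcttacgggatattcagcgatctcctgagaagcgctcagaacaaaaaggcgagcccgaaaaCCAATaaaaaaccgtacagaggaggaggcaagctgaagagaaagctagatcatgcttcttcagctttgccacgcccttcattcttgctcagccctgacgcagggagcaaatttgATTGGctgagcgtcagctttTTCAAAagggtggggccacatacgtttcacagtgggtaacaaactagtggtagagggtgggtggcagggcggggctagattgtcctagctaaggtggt
In Gins3 all 3 kinds were found, with an E2F form 41 bases and a CHR 28 bases before the start. Of the 56 member genes with a promoter in the table, 13 (23.2%) held an E2F form, against 2.32% of all 27025 promoters. CCAAT was found in 34 (60.7%) against 37.9%, and the CHR in 13 (23.2%) against 18.1%. Among the 18 of these genes that were higher in the NT1p14 than in the TBVp12 pair (named below), 6 held an E2F form, 14 CCAAT and 6 the CHR. A match is a description of the letters and not a site in use, and matches of different kinds may overlap.

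Over the 3 source pairs, no cell cycle gene passed the test of NT1 against TBV. With limma on 1 value per pair (n = 3), 0 of 59 members passed an adjusted p of 0.05, and 0 of 7978 genes in all did (0%); at an unadjusted p under 0.05 the counts were 0 members and 90 genes. The members' median was -0.0065 and that of all genes 0.00048. The mean of the 3 pairs was 0.38 ± 0.49 (SD, n = 3) for Top2a, which untangles DNA, 0.19 ± 0.45 for the proliferation marker Mki67, 0.058 ± 0.76 for Mcm2 and -0.17 ± 0.65 for Pcna, so that the spread between pairs was larger than the mean for each. Ccne1, the G1/S cyclin E1, had -0.26 ± 0.13 and lay below 0 on 12 of 13 arrays. Cdc45, which joins the helicase at firing, had -0.06 ± 0.02.

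**Figure D1:**
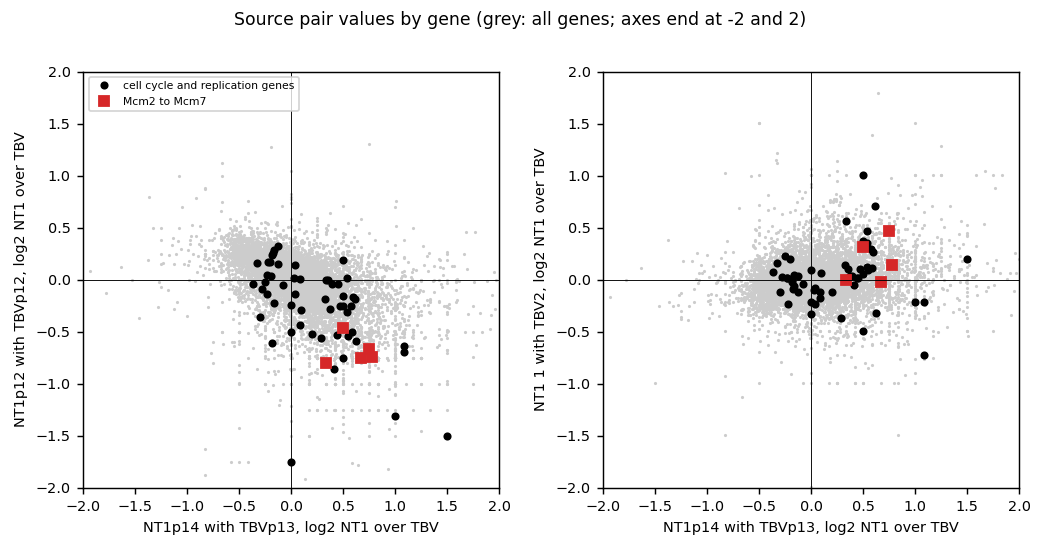
Each point is a gene, with its log2 ratio in the NT1p14 pair on the x axis and in the TBVp12 pair (left) or the TBV2 pair (right) on the y axis; black points are cell cycle and replication genes, red squares Mcm2 to Mcm7 and grey points all genes. On the left 32 of 59 members lie right of 0 and below it, and on the right 24 of 60 lie above 0 in both.

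By source pair, the members' median was 0.33 in the NT1p14 pair, -0.25 in the TBVp12 pair, 0.024 in the TBV2 pair and 0 in NT1p12 with TBVp13, where all genes had medians of 0.034, -0.0033, -0.0058 and 0. Of the 59 members with a value in both larger pairs, 32 lay above 0 in the NT1p14 pair and below 0 in the TBVp12 pair, 10 the other way round, 5 above 0 in both and 8 below 0 in both. The members' median lay below 0 on all 4 arrays of the TBVp12 pair (-0.25, -0.21, -0.081 and -0.39). In the NT1p14 pair it was above 0 on arrays 2, 4 and 5 (0.096, 0.44 and 0.18) and at 0 on arrays 1 and 3. On arrays 4 and 5 of that pair 28 and 33 of 58 members held a whole number. On arrays 1 to 3 it was 24 of 65, 15 of 54 and 19 of 57. The median absolute deviation of all values was 0.14, 0.33, 0.40, 0.68 and 0.88 on arrays 1 to 5. Centred on the ribosomal protein genes, an alternative added after seeing the data, the medians turned to -0.12 in the NT1p14, 0.21 in the TBVp12 and -0.11 in the TBV2 pair. All genes then had medians of -0.42, 0.46 and -0.14. The median of the ribosomal protein genes read 0, 0.11, 0, 1 and 1 on arrays 1 to 5 of the NT1p14 pair. It read 0 on array 3 of the TBVp12 pair. The size of this shift thus rests in part on values without decimals. Over probes without whole numbers the members' median in the NT1p14 pair was -0.09 and that of all genes -0.059.

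**Figure D2:**
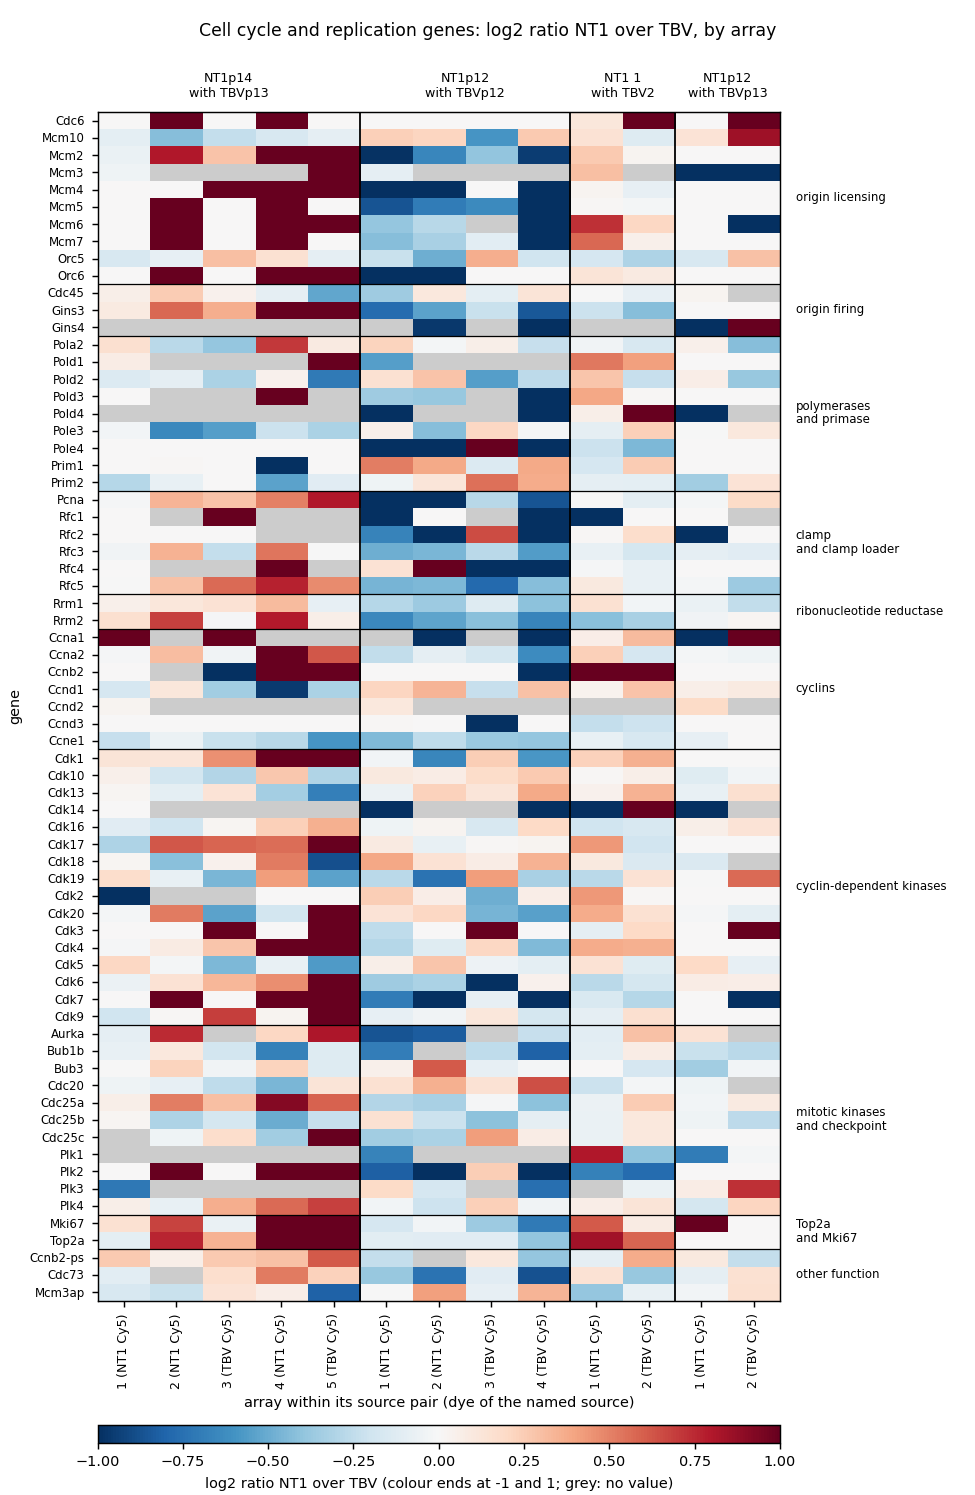
Rows are the 69 genes by role and columns the 13 arrays by source pair, with the dye of the NT1 or TBV source in brackets; colour is the log2 ratio of NT1 over TBV, ending at -1 and 1, and grey means no value. Mcm2 to Mcm7 are red mainly on arrays 2, 4 and 5 of the NT1p14 pair, with none above 0 on its array 1. They are mostly blue in the TBVp12 pair. Rows of the polymerases and primase mostly do not show this.

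The larger pairs were compared on repeat arrays with limma, with source pair and dye as terms, as the NT1p14 minus the TBVp12 pair. In this difference 19 of 57 members (33.3%) passed an adjusted p of 0.05 above 0 and 1 (1.75%) below 0, where 12.7% of all 7827 genes passed above and 10.5% below. The 19 were Mcm2, Mcm4, Mcm5, Mcm6, Orc6, Gins3, Pcna, Rfc3, Rfc5, Rrm1, Rrm2, Cdk1, Cdk7, Aurka, Cdc25a, Plk2, Top2a, Mki67 and Cdc73, and the 1 was Prim2. The median difference was 0.49 over the members and 0.034 over all genes, and 41 of 57 members had an estimate above 0, past the threshold or not, against 52.5% of all genes. With the NT1p14 pair turned 27 of 57 estimates lay above 0 (median -0.039), under ribosomal centring 13 of 57 (median -0.47), and over probes without whole numbers 18 of 33 (median 0.022). The median differences of all genes in these settings were -0.0089, -0.89 and -0.11. Every array of the NT1p14 pair lay above every array of the TBVp12 pair for 16 members (8.01% of all genes). For 1, Cdc20, every array lay below (6.09% of all genes). Of the 16, 14 were among the 19, and the others were Mcm7 and Ccna2. Cdk7, Mcm5, Mcm6 and Mcm7 read only whole numbers in the NT1p14 pair, some of them 0. A 0 without decimals may not lie above a TBVp12 value close to 0.

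These calls rest on few arrays. All 13 arrays entered the fit with 1 common spread for each gene. In NT1p12 with TBVp13, 26 of 69 and 23 of 61 members read 0. The median absolute deviation of all values was 0.078 and 0.13 there, and 0.14 to 0.88 in the NT1p14 pair. Standard errors and adjusted p may therefore be too small for the NT1p14 arrays. Without array 1 or array 2 of the TBVp12 pair 0 members passed above 0, and 0 and 4 of all 7827 genes did. Without its array 4 only Pcna and Rfc5 passed (1.1% of all genes above 0). Without arrays 2, 4 or 5 of the NT1p14 pair 12, 10 and 9 members passed above 0 (10.2%, 8.51% and 6.17% of all genes). With any 1 array left out, 39 to 42 of 57 differences lay above 0. At a threshold of 0.01 there were 0 calls. On arrays scaled to a common spread 7 members passed above 0 (4.93% of all genes) and 0 below (1.88%). With the NT1p14 pair turned there were 0 of either kind (0.0639% of all genes above and 0% below). Centred on the ribosomal protein genes, which shifts the median difference of all genes to -0.89, 0 members passed above and 20 below 0. Of all genes 1.32% passed above and 57.4% below under that centring. The direction of each difference is therefore relative to the median gene.

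Of the origin licensing genes, 5 of 9 tested passed the threshold above 0 (12.7% of all genes) and none below (10.5%). Their median difference was 1.12. Mcm2, a helicase subunit, read -0.065, 0.80, 0.28, 2 and 1 on arrays 1 to 5 of the NT1p14 pair and -0.99, -0.65, -0.39 and -0.95 on arrays 1 to 4 of the TBVp12 pair. On the TBV2 pair it read 0.26 and 0.024, and 0 on both arrays of NT1p12 with TBVp13. The larger pairs did not overlap, although array 1 of the NT1p14 pair stood near 0, and the difference was 1.54 (SE 0.35, adjusted p = 0.0194). The same comparison gave 1.39 for Mcm4, 1.17 for Mcm5, 1.40 for Mcm6 and 1.12 for Orc6, a subunit of the origin recognition complex. Mcm7 had 1.01 (SE 0.36, adjusted p = 0.0624) and missed the threshold. Its arrays did not overlap as printed, but it read the whole numbers 0, 1, 0, 2 and 0 in the NT1p14 pair. The highest TBVp12 value was -0.11, so the lack of overlap is uncertain. Mcm3 had a value on 6 arrays and was not tested. Ribosomal centring lowers the differences by similar amounts, so that the larger ones stay above 0. These helicase genes did (Mcm2 0.63, Mcm4 0.47, Mcm5 0.26, Mcm6 0.34, Mcm7 0.099), none of them past the threshold. So did Orc6, Gins3, Pcna, Rfc5, Cdk7 and Plk2, and this adds nothing to the size of the estimates. With the NT1p14 pair turned, Mcm2 was at -0.05 and Mcm6 at -0.23. Whole numbers made up 4 of 13 values for Mcm2, 11 of 13 for Mcm4 and 8 of 13 for Mcm5. They made up 8 of 12 for Mcm6, 8 of 13 for Mcm7 and 11 of 13 for Orc6.

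Mcm10, which binds the loaded helicase but is no part of its ring, read -0.10, -0.42, -0.24, -0.16 and -0.088 in the NT1p14 pair and 0.24, 0.22, -0.59 and 0.26 in the TBVp12 pair. The TBV2 pair gave 0.15 and -0.13, and NT1p12 with TBVp13 0.14 and 0.85. The 0.85 is the mean of -0.30 on one probe and the whole number 2 on another, which had no value on any other array. The difference between the larger pairs was -0.24 (SE 0.21, adjusted p = 0.425), and array 3 of the TBVp12 pair stood apart. Orc5, another origin recognition subunit, read -0.16, -0.079, 0.30, 0.16 and -0.093, then -0.23, -0.49, 0.36 and -0.20, with -0.17 and -0.31 in the TBV2 pair and -0.16 and 0.30 in NT1p12 with TBVp13. Its groups overlapped and its difference was 0.19 (SE 0.17). Cdc6, the loader, was a whole number on 12 of 13 arrays and had a difference of 0.40 (SE 0.31).

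Of the firing genes, Gins3 differed and Cdc45 did not pass the test. Gins3, a GINS subunit, read 0.092, 0.57, 0.36, 1 and 1 in the NT1p14 pair and -0.77, -0.53, -0.22 and -0.85 in the TBVp12 pair. It read -0.21 and -0.42 in the TBV2 pair and 0 on both arrays of NT1p12 with TBVp13. All arrays of the NT1p14 pair were above 0 and all of the TBVp12 pair below, with a difference of 1.20 (SE 0.22, adjusted p = 0.012). Cdc45 read 0.06, 0.26, 0.043, -0.092 and -0.52 against -0.35, 0.11, -0.10 and 0.13, and its difference was -0.0067 (SE 0.18, adjusted p = 0.982). In the TBV2 pair it read -0.0035 and -0.084, and 0.026 on 1 array of NT1p12 with TBVp13. Gins4, another GINS subunit, had 4 values, -0.97 and -5 in the TBVp12 pair and -1 and 2 in NT1p12 with TBVp13, and was not tested.

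Of the polymerase and primase subunits 0 of 6 tested passed the threshold above 0 (12.7% of all genes) and 1, Prim2, below (10.5%). The median difference was -0.25. Of the 6 estimates 2 lay above 0 and 4 below; the group was not tested against the helicase genes. Pola2, a subunit of polymerase alpha, read 0.16, -0.27, -0.39, 0.70 and 0.093 in the NT1p14 pair and 0.23, -0.017, 0.058 and -0.23 in the TBVp12 pair. Its TBV2 values were -0.032 and -0.16 and those of NT1p12 with TBVp13 0.049 and -0.42, and its difference was 0.022 (SE 0.20). Its arrays lay on both sides of 0 in each of these pairs but the TBV2 pair. Pold2, of polymerase delta, read -0.14, -0.088, -0.31, 0.045 and -0.71 against 0.15, 0.29, -0.55 and -0.26, with 0.28 and -0.23 and then 0.068 and -0.38 in the smaller pairs. The groups overlapped and the difference was -0.20 (SE 0.13). Prim2, the large primase subunit, read -0.28, -0.072, 0.0045, -0.53 and -0.12 against -0.041, 0.12, 0.55 and 0.37, with -0.09 and -0.10 in the TBV2 pair and -0.35 and 0.14 in NT1p12 with TBVp13. Its difference was -0.42 (SE 0.14, adjusted p = 0.0498) although the groups overlapped, and of the 13 fits that left out 1 array it passed only in that without array 2 of the NT1p14 pair. Prim1, the catalytic subunit, had -0.47 (SE 0.24, adjusted p = 0.156), Pole3 -0.29 and Pole4 0.53, none past the threshold. Pold1, Pold3 and Pold4 had values on 7, 9 and 5 arrays and were not tested.

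Of the clamp and clamp loader genes 3 of 4 tested passed the threshold above 0 (12.7% of all genes), and all 4 estimates lay above 0. Rfc5, a loader subunit with decimals on all arrays, read -0.006, 0.29, 0.57, 0.77 and 0.47 in the NT1p14 pair and -0.47, -0.45, -0.77 and -0.43 in the TBVp12 pair. The TBV2 pair gave 0.10 and -0.075 and NT1p12 with TBVp13 -0.022 and -0.36. The larger pairs did not overlap, and the difference was 0.94 (SE 0.17, adjusted p = 0.0131). Rfc3 read -0.035, 0.34, -0.24, 0.53 and -0.0065 against -0.49, -0.46, -0.27 and -0.56, with -0.07 and -0.18 and then -0.089 and -0.11 in the smaller pairs. It lay below 0 on 11 of 13 arrays, and its difference was 0.55 (SE 0.16, adjusted p = 0.034), turning to -0.37 under ribosomal centring. Rfc2 read 0 on arrays 1 to 3 of the NT1p14 pair, with no value on the others, and -0.67, -1, 0.66 and -6 in the TBVp12 pair. With 0.014 and 0.18 in the TBV2 pair and -1 and 0 in NT1p12 with TBVp13, its difference of 1.68 had an SE of 1.30, with the -6 on array 4 of the TBVp12 pair. Rfc1 and Rfc4 were not tested.

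Pcna, the clamp, had the smallest adjusted p of the members (1.28, SE 0.19, adjusted p = 0.0111), but its 2 probes did not read alike. One probe held whole numbers on 11 arrays, 0, 1, 0, 1 and 1 in the NT1p14 pair and -2, -2, -1 and -2 in the TBVp12 pair. The other probe, with decimals throughout, read -0.017, -0.32, 0.58, 0.015 and 0.59 against -0.32, -0.31, 0.45 and 0.28. The first probe alone separated the pairs, with pair values of 0.58 and -1.75, while the second had 0.24 and 0.024 and overlapped. The pair values of the averaged gene were 0.41 and -0.86.

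Both subunits of ribonucleotide reductase, which makes the building blocks of DNA, passed the threshold above 0 in this difference (12.7% of all genes). Under ribosomal centring both fell below 0 (Rrm1 -0.52, Rrm2 -0.03). Rrm1, the large subunit, read 0.048, 0.11, 0.14, 0.32 and -0.079 in the NT1p14 pair and -0.28, -0.37, -0.13 and -0.41 in the TBVp12 pair. Its values were 0.15 and -0.029 in the TBV2 pair and -0.069 and -0.24 in NT1p12 with TBVp13. These were small ratios that did not overlap between the larger pairs, with a difference of 0.40 (SE 0.13, adjusted p = 0.0433). Rrm2, the small subunit whose level follows S phase, read 0.16, 0.68, -0.011, 0.80 and 0.059 against -0.64, -0.53, -0.42 and -0.66, with -0.42 and -0.32 in the TBV2 pair and -0.032 and 0.018 in NT1p12 with TBVp13. The difference was 0.88 (SE 0.18, adjusted p = 0.0148), and here the TBV2 pair lay on the side of the TBVp12 pair.

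None of the 5 cyclins tested passed the threshold (12.7% of all genes above 0 and 10.5% below). Ccna2, cyclin A2 of S and G2 phase, read -0.012, 0.31, -0.032, 1.04 and 0.62 in the NT1p14 pair and -0.25, -0.087, -0.18 and -0.63 in the TBVp12 pair. In the TBV2 pair it read 0.24 and -0.17, and in NT1p12 with TBVp13 -0.018 and -0.044. The larger pairs did not overlap, and the difference of 0.65 (SE 0.22, adjusted p = 0.0541) just missed the threshold. These values of Ccna2 are means of 2 probes that did not read alike. One, with the whole numbers 2 and 1 on arrays 4 and 5 of the NT1p14 pair, had pair values of 0.62 and -0.51. The other, with decimals throughout, had 0.12 and -0.062 and overlapped. Ccnd1, cyclin D1 of G1, read -0.16, 0.11, -0.35, -0.95 and -0.31 against 0.22, 0.34, -0.23 and 0.30, with 0.037 and 0.29 and then 0.06 and 0.092 in the smaller pairs. Its estimate had the opposite sign to that of Ccna2, -0.49 (SE 0.21, adjusted p = 0.107), with overlap. Ccne1 read -0.23, -0.061, -0.22, -0.28 and -0.59 against -0.44, -0.25, -0.37 and -0.39, with -0.076 and -0.16 in the TBV2 pair and -0.082 and 0.0018 in NT1p12 with TBVp13. It was below 0 in both larger pairs alike, with a difference of 0.076 (SE 0.13). Ccnb2 (0.75, SE 0.51), all of whose 12 values were whole numbers, and Ccnd3 (0.23, SE 0.20) overlapped; Ccna1 and Ccnd2 were not tested.

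Of the cyclin-dependent kinases 2 of 15 tested (13.3%) passed the threshold above 0, a share near the 12.7% of all genes. Of the 15 estimates 10 lay above 0 and 5 below. Cdk1, the mitotic kinase, read 0.13, 0.12, 0.46, 1 and 1 in the NT1p14 pair and -0.031, -0.65, 0.25 and -0.58 in the TBVp12 pair. Its TBV2 values were 0.23 and 0.35, and both of NT1p12 with TBVp13 were 0. The larger pairs overlapped through array 3 of the TBVp12 pair, and the difference was 0.82 (SE 0.25, adjusted p = 0.0381), turning to -0.10 under ribosomal centring. Cdk7, the kinase that activates other kinases of the family and is part of the transcription factor TFIIH, had 1.84 (SE 0.55, adjusted p = 0.036) with 9 whole numbers of 13. Cdk4, partner of D cyclins, had 0.64 (SE 0.24, adjusted p = 0.072), and Cdk2, partner of cyclins E and A, -0.32 (SE 0.29, adjusted p = 0.429). Cdk6, the other partner of D cyclins, had 2.15 with an SE of 0.96, from values of 3.30 and -4.61 on 1 array of each pair. Both values are means of 2 probes, of which one held the whole numbers 7 and -9 there. The other, with decimals throughout, had pair values of -0.19 in the NT1p14 and 0.065 in the TBVp12 pair, the opposite direction.

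The kinases with decimals on all arrays are not core cell cycle kinases, and their ratios were small. Cdk5, a kinase of neurons, read 0.21, -0.023, -0.45, -0.071 and -0.56 in the NT1p14 pair and 0.057, 0.27, -0.051 and -0.10 in the TBVp12 pair, and 0.15 and -0.12 and then 0.20 and -0.081 in the smaller pairs. Cdk10 read 0.051, -0.18, -0.30, 0.27 and -0.30 against 0.10, 0.071, 0.18 and 0.26, with 0.01 and 0.057 in the TBV2 pair and -0.12 and -0.024 in NT1p12 with TBVp13. Cdk16 read -0.11, -0.20, 0.023, 0.23 and 0.36 against -0.039, 0.027, -0.16 and 0.20, with -0.20 and -0.16 and then 0.056 and 0.14. All 3 overlapped between the larger pairs, with differences of -0.26 (SE 0.13), -0.25 (SE 0.14) and 0.064 (SE 0.14). The remaining kinases, Cdk3, Cdk9, Cdk13, Cdk17, Cdk18, Cdk19 and Cdk20, had differences from -0.40 (Cdk18) to 0.67 (Cdk20), none past the threshold, and Cdk14 was not tested. One of the 2 probes of Cdk20 held a whole number 6 on array 5 of the NT1p14 pair.

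Among mitotic kinases and checkpoint genes 3 of 9 tested passed the threshold above 0 (12.7% of all genes) and none below (10.5%). Cdc25a, the phosphatase that activates kinases at the start of S phase, read 0.058, 0.51, 0.30, 0.91 and 0.59 in the NT1p14 pair and -0.29, -0.32, -0.013 and -0.41 in the TBVp12 pair. The TBV2 pair gave -0.059 and 0.25 and NT1p12 with TBVp13 -0.028 and 0.087. Each larger pair lay wholly on its own side of 0, and the difference was 0.74 (SE 0.18, adjusted p = 0.0226), at -0.17 under ribosomal centring. Cdc25b, a phosphatase of the same family that acts before mitosis, read 0.018, -0.31, -0.18, -0.49 and -0.23 against 0.15, -0.22, -0.41 and -0.092, with -0.07 and 0.10 in the TBV2 pair and -0.041 and -0.26 in NT1p12 with TBVp13. It overlapped (-0.10, SE 0.15), as did Cdc25c (0.49, SE 0.37). Plk4, which controls centriole copying, read 0.057, -0.077, 0.36, 0.56 and 0.68 against -0.028, -0.21, 0.24 and -0.032, with 0.069 and 0.13 and then -0.18 and 0.22, and had a difference of 0.35 (SE 0.16, adjusted p = 0.122).

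Aurka, Aurora kinase A of the spindle poles, had values on 10 arrays, -0.091, 0.75, 0.21 and 0.81 in the NT1p14 pair and -0.87, -0.83 and -0.23 in the TBVp12 pair. It read -0.10 and 0.29 in the TBV2 pair and 0.15 on 1 array of NT1p12 with TBVp13. The larger pairs did not overlap, and the difference was 1.10 (SE 0.21, adjusted p = 0.018), but -0.08 under ribosomal centring. Plk2 had 1.69 (SE 0.52, adjusted p = 0.0407) with 9 whole numbers of 13. Cdc20, the activator of the anaphase-promoting complex, ran the other way: it read -0.044, -0.082, -0.25, -0.46 and 0.13 against 0.15, 0.35, 0.14 and 0.64, with a difference of -0.45 (SE 0.16, adjusted p = 0.0654). Bub1b (0.42, SE 0.20) and Bub3 (-0.10, SE 0.16), of the spindle checkpoint, did not pass; Plk1 and Plk3 were not tested.

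Top2a read -0.10, 0.76, 0.35, 1 and 1 in the NT1p14 pair and -0.11, -0.12, -0.12 and -0.39 in the TBVp12 pair. It read 0.84 and 0.58 in the TBV2 pair, the same side as the NT1p14 pair, and 0 on both arrays of NT1p12 with TBVp13. The larger pairs did not overlap, though array 1 of the NT1p14 pair stood next to the TBVp12 arrays, and the difference was 0.78 (SE 0.22, adjusted p = 0.033). Mki67 read 0.15, 0.68, -0.064, 1 and 1 against -0.17, -0.028, -0.37 and -0.71, with 0.61 and 0.084 in the TBV2 pair and 1 and 0 in NT1p12 with TBVp13. Its groups overlapped at array 3 of the NT1p14 pair, and its difference was 0.83 (SE 0.25, adjusted p = 0.0379). Under ribosomal centring these differences were -0.13 for Top2a and -0.09 for Mki67. Of the genes known for another function, Cdc73 had 0.73 (SE 0.22, adjusted p = 0.04), but -0.23 under ribosomal centring, and Ccnb2-ps (0.51, SE 0.19) and Mcm3ap (-0.37, SE 0.21) did not pass.

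**Figure D3:**
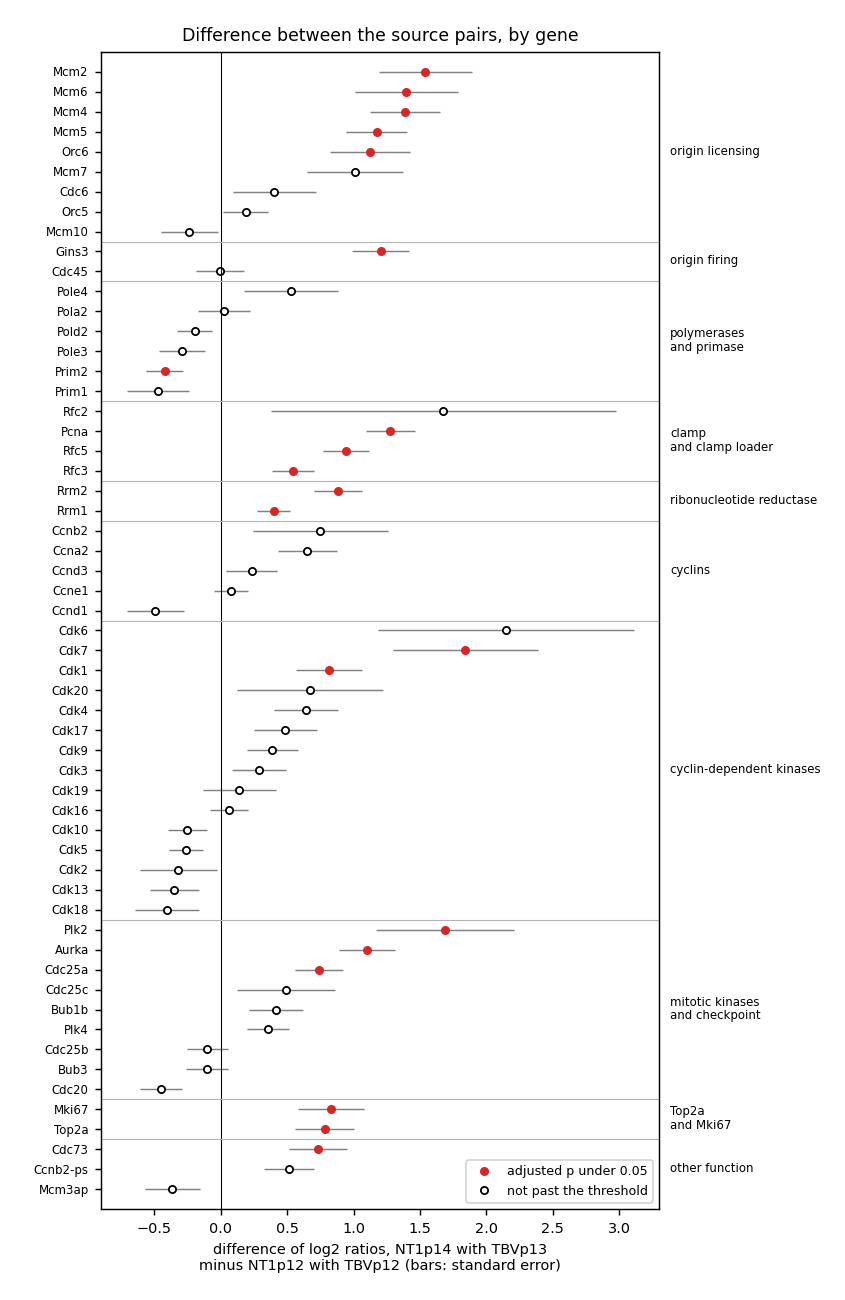
Points are the difference of log2 ratios between the NT1p14 and the TBVp12 pair for the 57 genes tested, by role, with bars of 1 standard error; filled red points passed an adjusted p of 0.05. Helicase, clamp and reductase genes lie right of 0 and most polymerase and primase genes left of it. Centred on ribosomal protein genes, 20 members passed the threshold left of 0 (57.4% of all genes) and none right of it (1.32%).

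Within single pairs, on repeat arrays, NT1 and TBV differed in the NT1p14 pair for 11 members above 0 (8.62% of all genes) and 2 below (7.3%). The 11 were Aurka, Cdc25a, Cdk1, Cdk3, Gins3, Mcm2, Mcm4, Pcna, Plk4, Rfc5 and Top2a, and the 2 were Ccne1 (-0.29, SE 0.085, adjusted p = 0.0463) and Pold2 (-0.29, SE 0.087, adjusted p = 0.0458). Cdk3 read only whole numbers in this pair. With NT1 in Cy5 it read 0 on arrays 1, 2 and 4, and with TBV in Cy5 1 on arrays 3 and 5. Without array 2, 4 or 5 of that pair 0 members were called in either direction, without its array 1 22 above 0, without array 4 of the TBVp12 pair 6, and without array 1 or 2 of the TBVp12 pair or any array of the smaller pairs 3. With the NT1p14 pair turned there were 0. In the TBVp12 pair 0 members were above 0 (0.0256% of all genes) and 1 was below (0.792%): Pcna, at -0.86 (SE 0.14, adjusted p = 0.0255). No member was called there without array 1, 2 or 4 of that pair or either array of the TBV2 pair, 2 without array 1 of the NT1p14 pair or array 3 of the TBVp12 pair, and 3 without array 4 of the NT1p14 pair. In the TBV2 pair 0 of 57 members passed (0.0129% of all genes above 0 and 0% below), with 1 member at an unadjusted p under 0.05. In NT1p12 with TBVp13 0 of 53 passed in limma (0% of all genes either way), again with 1 at an unadjusted p under 0.05.

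Ribosomal protein, proteasome and fibroblast lists also had medians above 0 in the NT1p14 and below 0 in the TBVp12 pair, and their part in the result was not tested. Ribosomal protein genes had medians of 0.42 in the NT1p14, -0.45 in the TBVp12 and 0.10 in the TBV2 pair, with 19 of 35 tested past the threshold above 0 and 2 below in the difference of the larger pairs. Proteasome genes had medians of 0.41, -0.32 and 0.013, with 11 of 27 above and 2 below. Fibroblast markers had medians of 0.79, -0.47 and -0.33, with 7 of 11 above and 0 below; their median ranged from 0.081 to 1 over the arrays of the NT1p14 pair and from -0.57 to -0.11 over those of the TBVp12 pair. Col1a1 differed by 1.52 and Acta2 by 1.87, beside 1.54 for Mcm2, while Thy1 (-0.063), Lox (-0.18) and Dcn (-0.34) had estimates below 0 that did not pass. The medians in these 2 pairs had the same sign for pluripotency (-0.25 and -0.60), trophectoderm (0.15 and 0.46) and endoderm markers (0.029 and 0.005). Of the pluripotency markers 3 of 7 passed above 0 and 0 below, and of the trophectoderm markers 0 of 3. Of the endoderm markers 0 of 5 passed above and 1 below. Beside all these lists, 12.7% of all genes passed above 0 and 10.5% below. In bulk RNA a change in the number of cells of a type and a change per cell cannot be told apart.

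**Figure D4:**
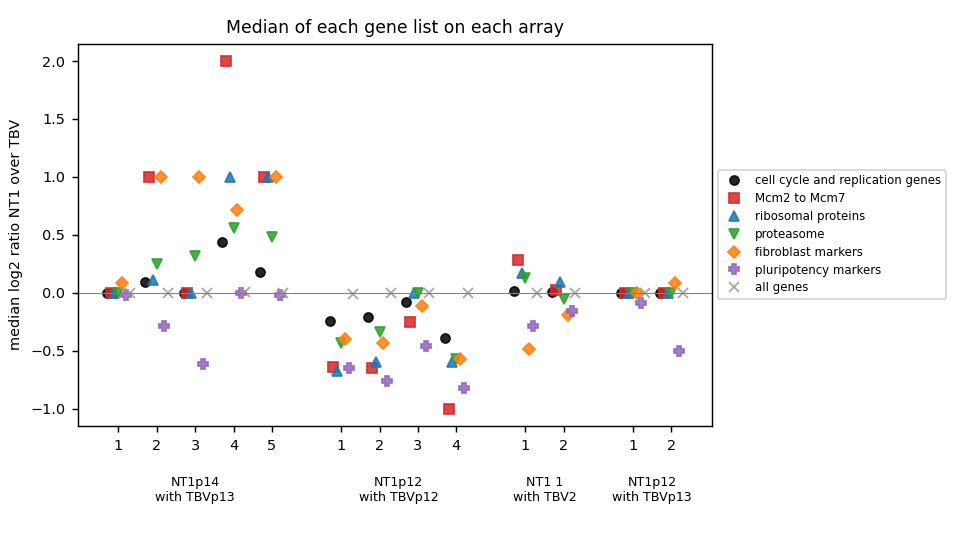
The median log2 ratio of each gene list is plotted for each array, grouped by source pair, with symbols of 1 array set side by side. Mcm2 to Mcm7, ribosomal protein, proteasome and fibroblast lists lie at or above 0 on the NT1p14 arrays and at or below 0 on the TBVp12 arrays, while pluripotency markers lie at or below 0 on all 13; centred on ribosomal protein genes the median of the cell cycle genes turns to -0.12 in the NT1p14 pair and 0.21 in the TBVp12 pair.

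A further list of 60 cell cycle and replication genes that the symbol rule does not take held 43 on the array, of which 32 were tested. Of these 4 (12.5%) passed the threshold above 0 in the difference of the larger pairs and 5 (15.6%) below, shares near the 12.7% and 10.5% of all genes. Those above were Uhrf1 (1.54), a factor of DNA methylation upkeep at replication, Ncaph (1.54), a condensin subunit, Cks1b (1.35), a kinase adaptor, and Tipin (1.05), of the fork protection complex. Those below were Tk1 (-0.76), thymidine kinase, E2f2 (-0.73), Smc4 (-0.72), a condensin subunit like Ncaph, Kif23 (-0.58), of the central spindle, and Chaf1b (-0.52), a histone chaperone of replication. The list's median difference was 0.36. Of the CDK inhibitors and p53 targets 2 of 9 passed above 0 and 1 below.

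The 5 genes outside the rule whose 13 array values were most like the members' median on each array, among 3266 genes with decimals throughout, were Ecel1 (r = 0.96), Bcl2l12 (0.96), 1700029H14Rik (0.95), Dlg1 (0.95) and Tcea1 (0.94). Tcea1, a transcription elongation factor, had pair values of 0.49, -0.52 and 0.096 in the NT1p14, TBVp12 and TBV2 pairs, and Dlg1 0.44, -0.39 and 0.053. These correlations were picked as the highest of many, over arrays that share sources.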

How the data were processed

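13 two-colour arrays of mouse total RNA were used. The values, treated as log2 ratios, are as deposited by the authors; log base, numerator and normalisation are not given in the sources used here. Arrays with TBV in Cy5 (6 of 13) were multiplied by -1, each array was centred on its median, and probes of a gene were averaged (12 members have several probes, and 1 probe has no value). Genes were named by the platform annotation, and 82 of 83 member probes matched RefSeq by Entrez ID. A pair value is the mean of both dye orientations. Tests used limma 3.58.1 in R 4.3.3 (two-sided, Benjamini-Hochberg over all genes, threshold 0.05): 3 pair values against 0 (7978 genes), and 13 arrays with pair and dye terms (7827 genes with at least 3 arrays in each larger pair), so that 12 of 69 members were not tested between pairs. The number of arrays limits the precision. Figures used matplotlib 3.10.9 in Python 3.11.15. The scripts were tested on simulated data. The members and lists were chosen with earlier results of these data known. All members are named; given on every array are the 3 genes of each role with the most decimal values, others were chosen after their values were seen. Alternatives covered centring, scaling, probe summary, whole numbers, dye orientation, sign, threshold and leaving out arrays.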

Additional observations from a re-analysis of the deposited data

Results flagged for a closer look

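Between the NT1p14 and the TBVp12 pair, 20 members differed in limma on repeat arrays: Cdk7 1.84, Plk2 1.69, Mcm2 1.54, Mcm6 1.40, Mcm4 1.39, Pcna 1.28, Gins3 1.20, Mcm5 1.17, Orc6 1.12, Aurka 1.10, Rfc5 0.94, Rrm2 0.88, Mki67 0.83, Cdk1 0.82, Top2a 0.78, Cdc25a 0.74, Cdc73 0.73, Rfc3 0.55, Rrm1 0.40 and Prim2 -0.42. Single arrays stood far from the others of their pair in 5 of 65 sets of 4 or 5 arrays over 34 members, with a gap to the nearest array, over the whole range, above Dixon's critical value, which chance passes in about 1 in 20. All were in the TBVp12 pair. On its array 3 Mcm10 read -0.59 against 0.22 to 0.26, Mcm4 0 against -1 on the other 3 (all whole numbers), Plk2 0.25 against -1 to -0.82 and Rfc5 -0.77 against -0.47 to -0.43. On its array 4 Top2a read -0.39 against -0.12 to -0.11.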

How the results depend on the processing

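No paired analysis was possible because replicate numbers follow accession order only. Over the 3 source pairs 0 genes passed under every alternative but source pair as a random block (5 genes, none a member). That alternative took the repeat arrays, which are technical, as its observations (residual consensus correlation -0.167). Its 5 calls therefore do not rest on independent replicates. For the difference of the larger pairs 1814 genes passed (19 members above and 1 below 0). Scaled arrays gave 533 genes (7 and 0) and the NT1p14 pair turned 5 (0 and 0). NT1 in Cy5 only or TBV in Cy5 only gave 0 (0 and 0). No dye term gave 1137 (14 and 0), ribosomal centring 4598 (0 and 20) and a threshold of 0.01 0 (0 and 0). Over probes without whole numbers 8 of 33 members (24.2%) passed above 0 and 3 below. Of all 5038 genes in that setting 7.72% passed above and 17% below. Leaving out 1 array gave 0 to 2273 genes (0 to 23 and 0 to 1). The split of all calls was 54.9% above 0, 31.2% over probes without whole numbers, 72.4% with scaled arrays and 2.24% under ribosomal centring.

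Within the NT1p14 pair (1246 genes) the settings in that order gave 64 (scaled), 123 (turned), 0 and 0 (1 orientation), 387, 2129, 5 (0.01) and 3 to 1891 leaving out 1 array; within the TBVp12 pair (64) 20, 14, 0 and 0, ribosomal centring 3, threshold 0.01 0 and 0 to 158 leaving out 1 array; within the TBV2 pair (1) scaled 9, median of probes 2, probes without whole numbers 0, 1 orientation 0 and 0, ribosomal centring 0 and 0 to 4 leaving out 1 array; in NT1p12 with TBVp13 (0) scaled 882 and 0 to 28 leaving out 1 array.

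The members' median in the NT1p14 pair (0.33) was -0.091 over probes without whole numbers, -0.33 turned, 0.10 with TBV in Cy5 only, -0.12 under ribosomal centring and 0.15 to 0.36 leaving out 1 array; that of the TBVp12 pair (-0.25) was -0.031 over probes without whole numbers, 0.21 under ribosomal centring and -0.36 to -0.11 leaving out 1 array; that of the TBV2 pair (0.024) was 0.034 scaled, 0.012 over probes without whole numbers, 0.017 over genes on all 13 arrays, 0.011 and 0.0053 by orientation and -0.11 under ribosomal centring; in NT1p12 with TBVp13 (0) it was -0.013 over probes without whole numbers.

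With the NT1p14 pair turned 34 of 57 estimates changed sign, and under ribosomal centring 28 of 57. Of the genes past the threshold in either fit, the turned differences of Cdc25a (-0.20), Cdk1 (-0.29), Cdk7 (-0.47), Gins3 (-0.016), Mcm2 (-0.048), Mcm6 (-0.23), Mki67 (-0.27), Orc6 (-0.063), Plk2 (-0.37) and Top2a (-0.43) reversed, and under ribosomal centring, chosen after seeing the data, those of Aurka (-0.082), Ccne1 (-0.84), Cdc25a (-0.17), Cdc73 (-0.23), Cdk1 (-0.099), Cdk16 (-0.85), Mki67 (-0.087), Orc5 (-0.73), Pola2 (-0.89), Rfc3 (-0.37), Rrm1 (-0.52), Rrm2 (-0.031) and Top2a (-0.13). Ribosomal centring moved the median difference of all genes from 0.034 to -0.89. Small estimates above 0, such as those of Ccne1 (0.076), Cdk16 (0.064) and Pola2 (0.022), turned with this shift. The causes were not tested.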
